A study of Mus musculus with 16 samples.

Results

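Retinal ganglion cells at the clinical onset of experimental autoimmune encephalomyelitis (EAE) were compared with cells from naive mice by ATAC-seq, using the 3 libraries titled onset and the 5 titled naive out of 16 libraries in all. The mice were female, and the cells were sorted from eyes by flow cytometry. Naive mice were untreated controls, and the others received EAE when 7 to 8 weeks old. The labels give no strain, no genotype and no sorting marker, and they leave unsaid if each library is a separate animal. The p-values therefore measure the spread between these libraries, part of which may be technical. The remaining libraries, 4 presymptomatic and 4 from disease peak, entered the fit only to share its estimate of spread and are given as side values.

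ATAC-seq uses a transposase that inserts adapters where DNA is accessible, so reads pile up over open chromatin. Retinal ganglion cells are the output neurons of the retina, and their axons form the optic nerve, a common site of demyelination in EAE. Rod photoreceptors are the most numerous neurons of the mouse retina and are a usual contaminant of sorted ganglion cells. In a pool of sorted cells, fewer cells of a type and less accessibility per cell cannot be told apart. Each value here was a count of reads over 1 gene interval, which for genes of at least 2000 bp was the gene body without its outer 1000 bp on each side. Counts are given as CPM, counts-per-million after TMM scaling (a correction for library composition), and differences are log2 fold changes, onset minus naive, with a standard error (SE).

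Depth was wide in both groups, at 6.67 to 30.9 M (megareads) in intervals for onset and 10.7 to 24.9 M for naive libraries. Nuclear reads were 9.70 ± 5.42 M (SD, n = 3) against 7.92 ± 4.24 M (SD, n = 5), a difference within the spread (two-sided exact permutation p = 0.643). Mitochondrial genes took 37.2%, 51.3% and 8.36% of interval reads in onset replicates 1 to 3 and 39.3% to 64.7% in naive libraries (exact permutation p = 0.107, adjusted p = 0.321 over 3 tests). With 3 against 5 libraries the smallest p this test can give is 0.0357. Olfactory, vomeronasal and trace amine receptor genes, which are typical of sensory neurons of the nose, took 0.223%, 0.290% and 0.213% of nuclear reads at onset. The naive values were 0.280%, 0.202%, 0.582%, 0.512% and 0.228%, so naive replicates 3 and 4 stood above the other 6 libraries (exact permutation p = 0.464, adjusted p = 0.643). As a share of all interval reads the receptor difference was −0.0043 percentage points, and onset replicate 3 (0.195%) was above naive replicate 4 (0.181%). Values were also computed without onset replicate 3 and without naive replicates 3 and 4. They are given for genes at an unadjusted p under 0.05 where they moved by over 1.5 times, and for only some groups. Other group medians also moved by over 1.5 times or changed sign, so a median given alone need not have held. The plot of list medians shows both settings for every list. The naive pair was singled out after the data were seen, for its receptor and X-linked shares, so values without it describe where a difference lies and are no independent check.

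No gene passed the test. Of 37255 gene intervals, 29902 had enough reads, and 0 of these had an adjusted p under 0.05 by edgeR's quasi-likelihood test with Benjamini-Hochberg adjustment, the smallest being 0.985. At an unadjusted p under 0.05 there were 467 genes higher at onset (1.56% of those tested) and 876 lower (2.93%), or 1343 together (4.49%). The count by DESeq2, by voom and by limma-trend was 0 as well, with 479, 810 and 458 genes higher and 1355, 888 and 631 lower at an unadjusted p under 0.05. The 3 onset libraries lay above all 5 naive libraries for 478 genes (1.60%) and below all of them for 280 (0.936%). The count of lower genes rested on single libraries: it was 330 without naive replicate 3, 474 without naive replicate 4 and 337 without onset replicate 1, against 1740, 1490 and 1338 without naive replicate 2, naive replicate 5 and onset replicate 2. The count of higher genes was 190 without onset replicate 3, 272 without naive replicate 3 and 747 without naive replicate 5. Everything below is thus a description of differences in level, and none of them is a called change.

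**Figure D1:**
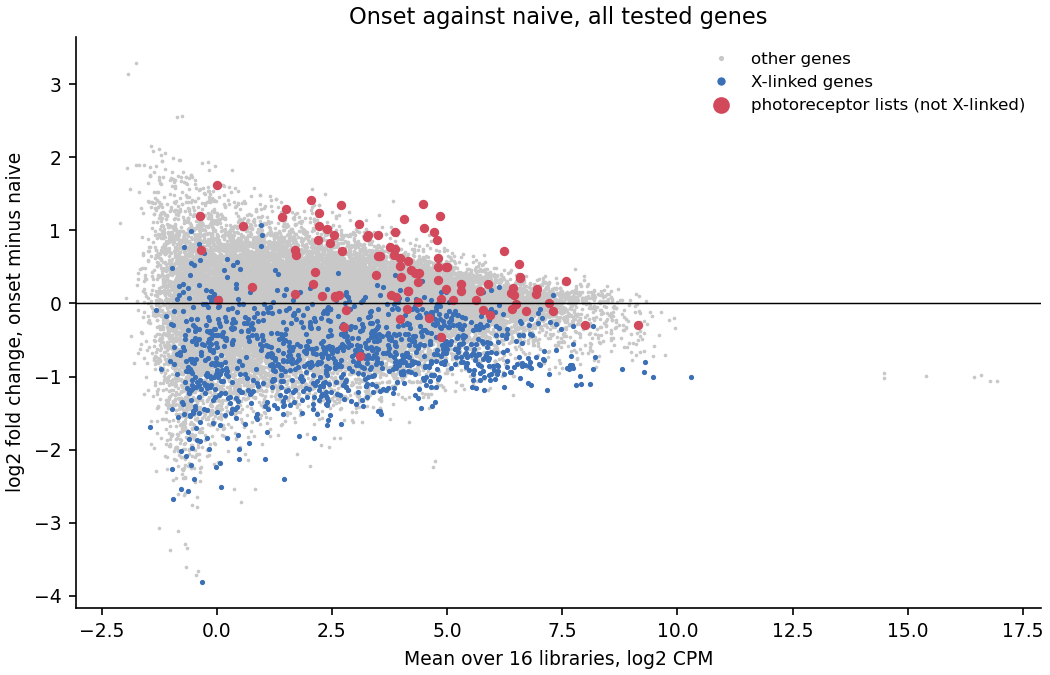
Log2 fold change at onset against naive (vertical axis) plotted against the mean log2 CPM over 16 libraries (horizontal axis) for all tested genes, with 1 point per gene. X-linked genes (blue, median −0.67) lie below the cloud of other genes, and the photoreceptor-list genes that are not X-linked (red) lie mostly above 0.

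Outside the photoreceptor lists, the 12 genes higher at onset with the smallest p were a mixed set of signalling, cytoskeletal and metabolic genes. They were taken among genes with a span of at least 2000 bp and a mean of at least 5 CPM. Their median log2 fold change was 0.95, and in 7 of the 12 no onset library overlapped a naive one. Over all tested genes 1.60% were higher without overlap. Choosing the genes by p favours both a large median and a lack of overlap. Onset replicate 3 was the highest onset library for all 12, and without it their median was 0.62. Unadjusted p ran from 0.0019 to 0.00554, and the edgeR adjusted p was 0.985 for each of them.

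Ip6k2, an inositol hexakisphosphate kinase (chromosome 9, 108783763 to 108806333 as deposited), had 17.3, 11.4 and 19.1 CPM in onset replicates 1 to 3. Naive replicates 1 to 5 had 6.73, 9.77, 5.59, 4.74 and 8.91 CPM. All onset libraries were above all naive ones, and the log2 fold change was 1.14 ± 0.34 (SE). Presymptomatic libraries had a mean of 7.19 CPM and peak libraries 9.96 CPM, so both other disease stages were nearer to naive than to onset.

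Caskin1, a synaptic scaffold that binds CASK (chromosome 17, 24487837 to 24508909), was the most even of the set within onset. Its onset values were 15.4, 16.1 and 16.3 CPM, and its naive values 8.23, 13.2, 5.67, 4.74 and 9.30 CPM. The groups did not overlap, and the log2 fold change of 0.94 ± 0.32 (SE) was 0.93 without onset replicate 3. Without naive replicates 3 and 4 it was 0.63. This gene had 11.2 CPM in presymptomatic and 8.86 CPM in peak libraries.

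Tdrd7, a Tudor-domain protein of RNA granules, had 39.7, 40.6 and 64.3 CPM at onset and 20.7 to 35.0 CPM in naive libraries (0.73 ± 0.23, SE). Add1, the cytoskeletal protein alpha-adducin, had 24.0, 26.6 and 35.9 CPM against 8.96 to 19.8 CPM (0.88 ± 0.29). Neither gene's groups overlapped, and without onset replicate 3 their log2 fold changes were 0.47 and 0.69.

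Camta2, a calmodulin-binding transcription activator, had 6.53, 7.70 and 17.3 CPM at onset against 3.85 to 5.29 CPM in naive libraries (1.19 ± 0.37, SE). Grtp1, a TBC-domain protein, had 20.8, 19.9 and 35.8 CPM against 8.81 to 15.4 CPM (0.93 ± 0.29). Both were above every naive library in all 3 onset libraries, and in both onset replicate 3 was far above the other 2. Without it their log2 fold changes were 0.62 and 0.61.

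The other members overlapped in at least 1 library, apart from Rd3. They were Slc38a3, a glutamine transporter (1.21 ± 0.37), Mecr, a reductase of mitochondrial fatty acid synthesis (1.04 ± 0.35), Dhh, the ligand desert hedgehog (1.01 ± 0.33), Tob2, an antiproliferative protein (0.95 ± 0.30), and Gpx4, the peroxidase that reduces lipid hydroperoxides (0.86 ± 0.29). Without onset replicate 3 these were 0.72 for Slc38a3, 0.66 for Mecr, 0.62 for Dhh, 0.57 for Tob2 and 0.58 for Gpx4. Rd3 is a photoreceptor protein that inhibits retinal guanylate cyclase, although it was not in the lists. It had 28.7 to 54.4 CPM at onset and 15.2 to 28.4 CPM in naive libraries (0.86 ± 0.27, and 0.52 without onset replicate 3).

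**Figure D2:**
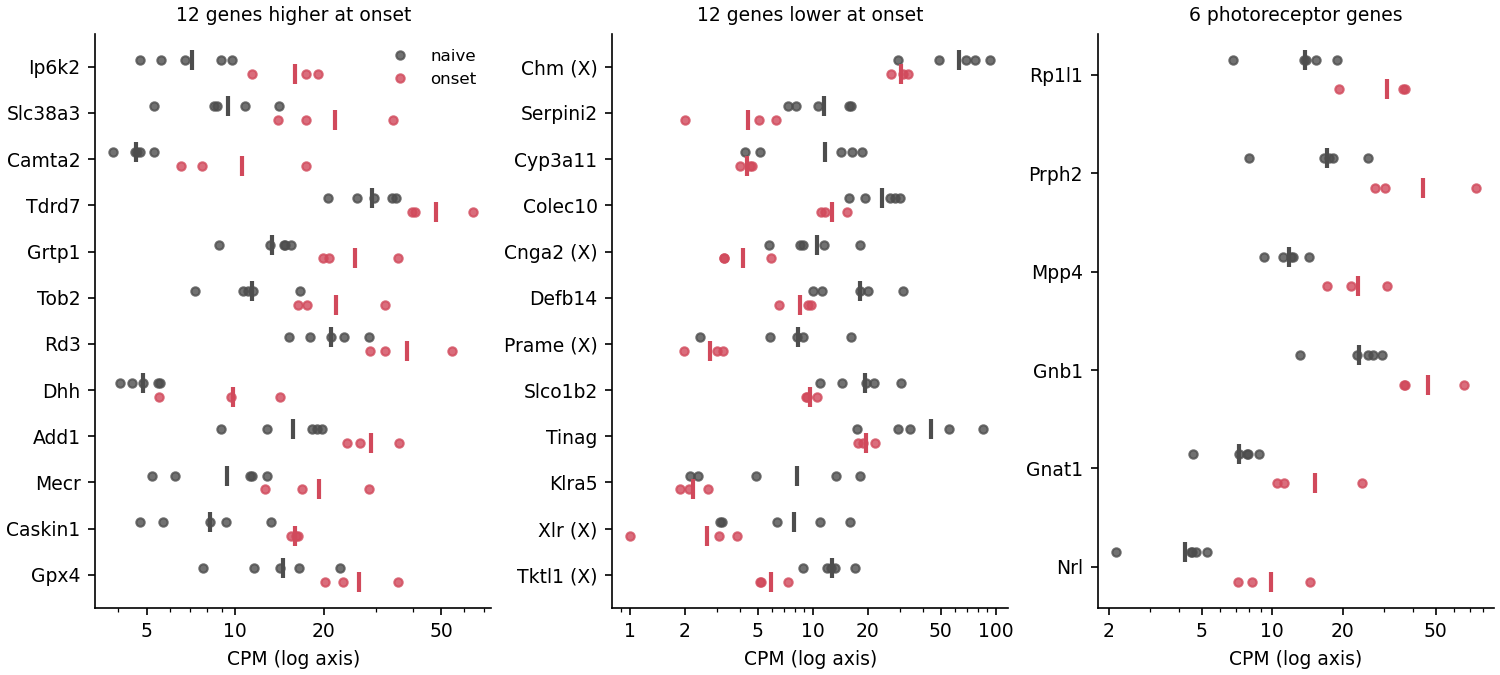
CPM in each naive (grey) and onset (red) library on a log axis for the 12 higher, the 12 lower and the 6 photoreceptor genes with the smallest p, with vertical ticks at group means. Onset and naive points do not overlap in 7 of the 12 higher, 5 of the 12 lower and all 6 photoreceptor genes, which the choice by p favours. Over all tested genes 1.60% were higher and 0.936% lower without overlap. Onset points of the lower genes are bunched while naive points are spread.

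Photoreceptor genes stood highest as a group. Of 107 genes in 5 photoreceptor lists, 101 were tested and 80 of these were higher at onset, with 26 higher and 2 lower at an unadjusted p under 0.05 and a median of 0.32, against −0.01 over all genes. Rod genes carried most of this: 27 of 28 were higher, 17 of them at an unadjusted p under 0.05 (the share over all tested genes was 1.56%), with a median of 0.885. Without onset replicate 3 the median was 0.475, with 2 rod genes higher at an unadjusted p under 0.05, out of 189 over the same 29902 genes. With any other single library left out the rod median was 0.779 to 1.03. Without naive replicates 3 and 4 it was 0.91.

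Gnat1, the alpha subunit of rod transducin, and Nrl, the transcription factor that sets rod fate, did not overlap between the groups. Gnat1 had 11.3, 10.4 and 24.2 CPM at onset and 4.60 to 8.76 CPM in naive libraries (1.09 ± 0.32, SE). Nrl had 7.16, 8.17 and 14.5 CPM against 2.15 to 5.28 CPM (1.23 ± 0.37). In both genes onset replicate 3 was well above the other onset libraries, and without it their log2 fold changes were 0.585 and 0.86.

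Rp1l1, of the photoreceptor axoneme, differed in that onset replicate 1 was as high as replicate 3. Its onset values were 36.2, 19.4 and 37.0 CPM and its naive values 13.7, 14.02, 6.82, 19.0 and 15.4 CPM (1.16 ± 0.31, SE).

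Not every rod gene was higher to the same degree. Cnga1 and Cngb1, the subunits of the rod cyclic-nucleotide-gated channel, had log2 fold changes of 0.12 ± 0.32 and 0.27 ± 0.26 (SE), and Gngt1, the transducin gamma subunit, had 0.08 ± 0.58; their direction changed with the libraries kept. Cone genes were 10 of 17 higher with a median of 0.30, and photoreceptor synapse genes 16 of 20 with 0.24. Without naive replicates 3 and 4 these medians were 0.19 and 0.10. Outer segment and cilium genes were 24 of 31 higher with 0.16, and photoreceptor transcription factors 11 of 15 with 0.20 (0.31 without that pair). Among the last, Nr2e3 (1.04 ± 0.34, and 0.63 without onset replicate 3) and Esrrb (0.71 ± 0.21, and 0.42) were high and the upstream factors Crx (0.12 ± 0.43) and Otx2 (0.10 ± 0.42) were near 0.

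The rod score of a library, the mean log2 CPM of the 28 rod genes, was 3.72, 3.81 and 4.54 in onset replicates 1 to 3 and 2.90 to 3.61 in naive libraries. Summed over the list, rod genes had 531.9 to 939.2 CPM at onset and 426.5 to 530.7 CPM in naive libraries. The library with the highest score was also the one with 8.36% mitochondrial reads and a TMM factor of 2.02. The part of rod cells or of this library's composition in the genes above was not tested. The neighbours of photoreceptor genes were looked at because Slc38a3 lies 5.5 kb from Gnat1 on chromosome 9. Of 203 tested genes within 20 kb of a photoreceptor-list gene, 141 were higher at onset and 9 were so at an unadjusted p under 0.05 (4.43%), with a median of 0.19. For the other 29598 genes outside the lists the share was 1.46% and the median −0.01. This window was chosen after the values of Slc38a3 were seen.

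**Figure D3:**
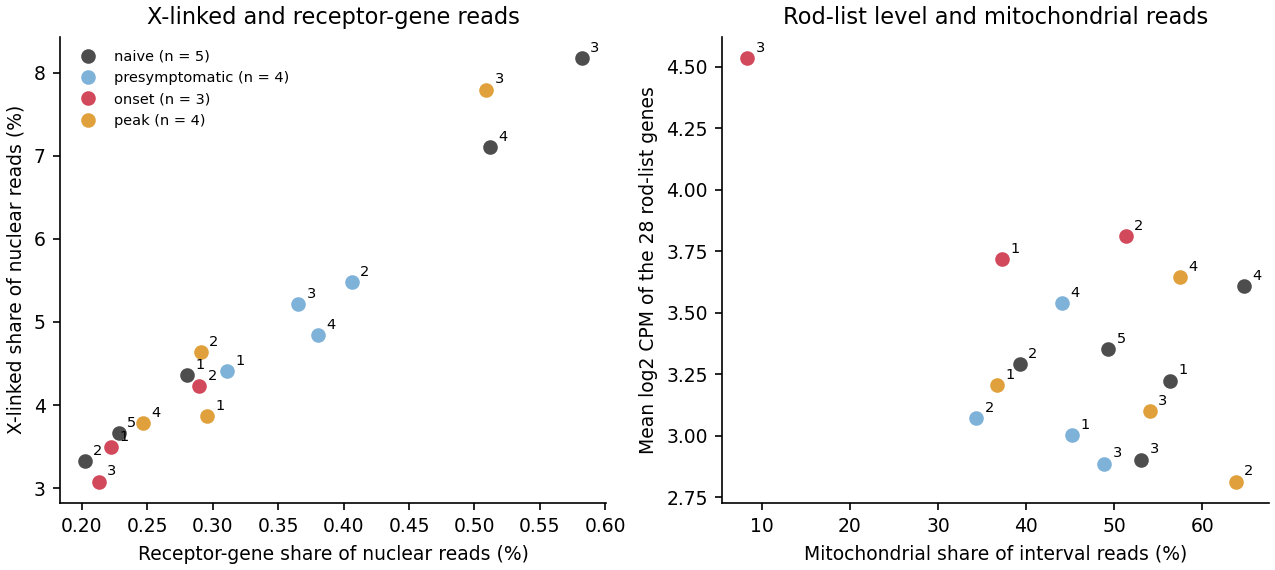
Left, the X-linked share against the receptor-gene share of nuclear reads for 16 libraries, numbered by replicate and coloured by stage; naive replicates 3 and 4 and peak replicate 3 lie apart at the upper right. Right, the mean log2 CPM of the 28 rod-list genes against the mitochondrial share of interval reads; onset replicate 3 stands alone at 8.36% and 4.54.

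A short sequence was more frequent in promoters of rod genes than in those of all genes. Promoter sequence is the same whatever the libraries show, so this describes the listed genes and is no support for a difference at onset. TAATCC is the core recognised by the homeodomain factors CRX and OTX2, and it was searched on both strands (as TAATCC or GGATTA) in the 250 bases before each RefSeq start on GRCm38.p6. It was found in 10 of 22 promoters of the 19 rod genes that matched (45.5%), against 6.25% of 32851 promoters of all genes. In the 12 genes higher at onset outside the lists it was in 1 of 18 promoters, and in the 12 lower genes in 1 of 10. The core of the NRL element, TGCTGA or TCAGCA, was in 22.7% of rod promoters and 16.1% of all. The first 1000 bp of a gene of at least 2000 bp is not counted, and some alternative or internal starts fall inside counted intervals, so the reads do not measure these promoters separately. The promoters of Gucy2e, Cngb1 and Gucy2f are shown because all carry the core while the log2 fold changes of Gucy2e (0.91), Cngb1 (0.27) and Gucy2f (−0.68) were unlike each other, none past the adjusted threshold; capitals mark each match.
Gucy2e (chr11:69237023-69237272, minus strand): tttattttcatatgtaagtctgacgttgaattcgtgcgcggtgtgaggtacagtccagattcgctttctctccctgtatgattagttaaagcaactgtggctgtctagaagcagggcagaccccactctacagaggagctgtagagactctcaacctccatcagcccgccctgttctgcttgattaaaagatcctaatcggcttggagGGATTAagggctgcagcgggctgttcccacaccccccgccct
Cngb1 (chr8:95306586-95306835, minus strand): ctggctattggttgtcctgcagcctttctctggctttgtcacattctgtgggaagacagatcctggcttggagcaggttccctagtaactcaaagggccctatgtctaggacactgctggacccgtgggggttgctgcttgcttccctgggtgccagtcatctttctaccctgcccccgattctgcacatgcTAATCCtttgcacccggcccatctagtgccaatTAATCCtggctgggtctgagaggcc
Gucy2f (chrX:142196937-142197186, minus strand): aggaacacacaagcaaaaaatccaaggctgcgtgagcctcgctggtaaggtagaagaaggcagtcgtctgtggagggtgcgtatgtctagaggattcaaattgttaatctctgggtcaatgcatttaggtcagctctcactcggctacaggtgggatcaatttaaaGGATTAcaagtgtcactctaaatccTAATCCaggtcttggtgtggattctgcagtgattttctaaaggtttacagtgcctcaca

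Gucy2e and Gucy2f encode the paired guanylate cyclases that restore cyclic GMP in photoreceptors. Gucy2e had 14.8, 11.5 and 19.6 CPM at onset against 7.16, 9.70, 6.67, 6.01 and 11.0 CPM in naive libraries, with no overlap (0.91 ± 0.31, SE). The X-linked Gucy2f had 41.9, 54.2 and 33.6 CPM against 52.4, 36.0, 139.0, 73.3 and 46.4 CPM (−0.68 ± 0.33, and −0.05 without naive replicates 3 and 4). It was the 1 rod gene lower at onset, its groups overlapped, and its highest values were those of naive replicates 3 and 4. Cngb1 had 43.8, 57.9 and 47.1 CPM against 41.9, 44.1, 23.8, 32.8 and 64.0 CPM, within the naive range.

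Genes on the X chromosome were lower at onset almost throughout. Of 1099 X-linked genes tested, 1018 were lower and 81 higher, with 217 lower (19.7%, against 2.93% of all genes) and 1 higher at an unadjusted p under 0.05. Their median log2 fold change was −0.67, while the medians of the 19 autosomes lay between −0.09 and 0.09. X-linked genes made up 24.8% of all genes lower at an unadjusted p under 0.05. Scaled to interval length (kb) and to nuclear reads (M), the median of 946 X-linked genes was 1.02 in naive and 0.640 in onset libraries. The median of 27724 tested nuclear genes was 0.648 and 0.639. Genes with short spans were left out of these medians. The breakdown by chromosome was made after the data were seen.

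The X-linked difference was largest against naive replicates 3 and 4. The X-linked share of nuclear reads was 3.49%, 4.23% and 3.08% in onset libraries and 4.36%, 3.33%, 8.18%, 7.10% and 3.66% in naive ones, so the 2 groups overlapped (two-sided exact permutation p = 0.25, adjusted p = 0.5 over 4 tests). Without onset replicate 3 the X-linked median was −0.57, with 88 genes lower at an unadjusted p under 0.05, out of 729 over all 29902 genes. It was −0.39 without naive replicate 3 alone. Without naive replicates 3 and 4 it was −0.09 with 17 lower, out of 180 over all 29902 genes, and with the receptor share as a covariate −0.09 with 27, out of 273. Under both settings the X-linked genes held a larger share of the lower genes than of the genes tested. The pair was singled out partly for its X-linked share, and the covariate varied with that share. Neither setting is therefore an independent check. Peak replicate 3, at 7.79%, was the third library with a high X-linked share. In these 3 libraries the receptor share was at least 0.509%, and in the other 13 at most 0.406%.

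Among those 13 libraries the X-linked share was correlated with the receptor share (Pearson r = 0.947, Spearman rho = 0.94, permutation p = 2e-05 for each, the smallest that 100000 permutations can give, 1 relation). The value of r was 0.934 once the 2 farthest libraries were removed, and 0.872 with stage means taken out. Both shares are parts of the same nuclear reads, and no pooled value over the separate clusters is given. The part of the receptor share in the X-linked difference was not tested.

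**Figure D4:**
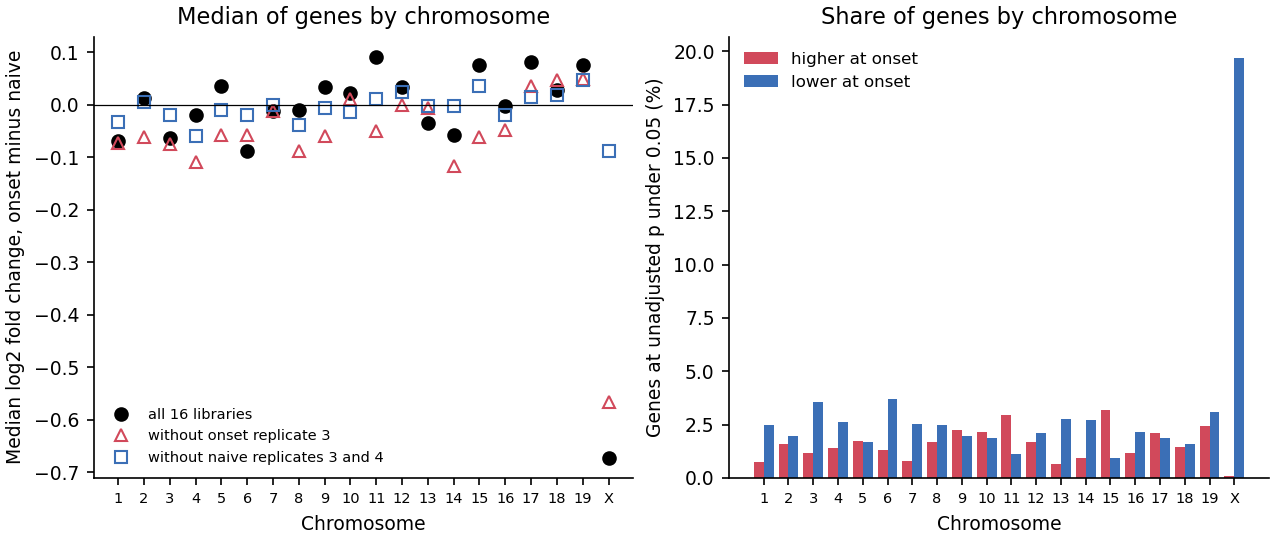
Left, the median log2 fold change of tested genes by chromosome with all libraries (black), without onset replicate 3 (red) and without naive replicates 3 and 4 (blue). Right, the percentage of genes at an unadjusted p under 0.05, higher (red) or lower (blue); X stands apart with 19.7% lower, and without naive replicates 3 and 4 its median moves from −0.67 to −0.09.

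X-linked genes with few reads differed more than those with many. In 5 bins of X-linked genes from low to high read density, taken in presymptomatic and peak libraries, the medians were −0.81, −0.79, −0.75, −0.67 and −0.27. Genes of the X-inactivation centre and genes known to escape X inactivation, a list added after the data were seen, had a median of −0.12 with 4 of 12 higher and 0 at an unadjusted p under 0.05. Xist, the RNA that coats the inactive X, had 20.8, 23.3 and 14.5 CPM at onset and 14.2 to 23.1 CPM in naive libraries (0.16 ± 0.28, SE). The escape genes Kdm5c (−0.16 ± 0.28) and Ddx3x (−0.04 ± 0.32) also overlapped between groups. Kdm6a, an H3K27 demethylase that escapes as well, was below every naive library at onset, with 47.2, 47.7 and 32.7 CPM against 51.1 to 57.8 CPM (−0.34 ± 0.22).

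In 39 X-linked genes all onset libraries were below all 5 naive ones (0.936% of all tested genes were). Nsdhl, an enzyme of cholesterol synthesis, had 6.03, 6.05 and 6.96 CPM at onset and 11.8, 7.61, 14.1, 10.0 and 15.7 CPM in naive libraries (−0.89 ± 0.31, SE, and −0.87 without naive replicates 3 and 4).

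Aifm1, the mitochondrial apoptosis-inducing factor, showed the other pattern. It had 9.17, 10.3 and 9.90 CPM at onset and 15.1, 8.54, 32.9, 29.2 and 10.1 CPM in naive libraries, so naive replicates 2 and 5 were level with onset. Its log2 fold change was −0.96 ± 0.36 (SE) with all libraries and −0.19 without naive replicates 3 and 4.

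The 12 lower genes with the smallest p outside the photoreceptor lists had a median of −1.26. Of these, 5 were X-linked, and in 11 of 12 the highest naive value was that of replicate 3 or 4. In 5 the groups did not overlap, which the choice by p favours (0.936% of all tested genes were lower without overlap). Without naive replicates 3 and 4 the median was −0.77, and without onset replicate 3 it was −1.24. Their edgeR adjusted p was 0.985 throughout.

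Chm, a Rab escort protein whose loss degenerates the choroid and retina (chromosome X, 113040591 to 113185539), had 31.3, 33.4 and 26.9 CPM at onset. Its naive values were 48.8, 29.4, 93.5, 76.8 and 68.7 CPM, so only naive replicate 2 reached the onset range (−1.05 ± 0.30, SE). The log2 fold change was −0.68 without naive replicates 3 and 4. Tktl1, a transketolase-like gene on X, had 5.15, 5.24 and 7.37 CPM against 8.81 to 17.01 CPM, with no overlap (−1.10 ± 0.35).

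Serpini2, a serine protease inhibitor of pancreas, had 2.01, 6.27 and 5.07 CPM against 10.7, 7.34, 15.7, 16.1 and 8.12 CPM (−1.34 ± 0.39, SE). Slco1b2, a hepatic anion transporter, had 9.29, 10.5 and 9.21 CPM against 10.9 to 30.4 CPM (−1.001 ± 0.31), and Colec10, a collectin of liver, 15.3, 11.7 and 11.1 CPM against 15.8 to 30.1 CPM (−0.93 ± 0.27). These 3 did not overlap between groups. Cyp3a11, a hepatic cytochrome, had 4.65, 4.54 and 4.01 CPM against 4.29 to 18.6 CPM and overlapped (−1.41 ± 0.41, and −0.84 without naive replicates 3 and 4).

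The others were Cnga2, the olfactory channel subunit (−1.33 ± 0.40), Defb14, a beta-defensin (−1.08 ± 0.33), Prame (−1.60 ± 0.50), Xlr (−1.52 ± 0.49), Tinag, a basement membrane protein of kidney (−1.19 ± 0.37), and Klra5, a receptor of natural killer cells (−1.85 ± 0.58). Klra5 had 1.88 to 2.68 CPM at onset and 2.13 to 18.2 CPM in naive libraries, and its log2 fold change was −0.45 without naive replicates 3 and 4. Without that pair it was −0.69 for Defb14, −0.99 for Prame, −0.61 for Xlr and −0.47 for Tinag. The wider list of liver-enriched genes had 18 of 30 lower, 5 at an unadjusted p under 0.05 (the share over all genes was 2.93%), with a median of −0.30 that was −0.13 without those 2 libraries and −0.12 without naive replicate 3 alone.

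Of 684 olfactory, vomeronasal and trace amine receptor genes tested, 589 were lower at onset, 60 of them at an unadjusted p under 0.05 (8.77%, against 2.93% of all genes), with a median of −0.76. It was −0.39 without naive replicate 3. Since these genes define the receptor share, no median is given without the pair of libraries chosen for that share. Autosomal genes were split into 10 bins by read density. The highest bin, of 2860 genes, had a median of 0.17 with 113 genes higher and 12 lower at an unadjusted p under 0.05 (1.56% and 2.93% of all tested genes were), and in the other 9 the medians lay between −0.07 and 0.02. Density was taken from presymptomatic and peak libraries, which are not in the contrast.

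Genes that mark retinal ganglion cells differed little as a group. The 33 tested transcription factors had a median of −0.07, and the 33 structural and type markers −0.06, with 1 lower and 0 higher at an unadjusted p under 0.05 in each list (2.93% and 1.56% of all genes were). Rbpms, the usual pan-ganglion-cell marker, had 78.7, 106 and 63.5 CPM at onset and 68.7 to 112 CPM in naive libraries (−0.16 ± 0.23, SE). Thy1 (−0.28 ± 0.46), Isl1 (−0.50 ± 0.44) and Nefl (0.06 ± 0.65) overlapped as well. Pou4f1 and Pou4f2, the factors of ganglion cell fate, have short gene bodies and had 0.309 to 2.68 CPM in all 8 libraries, too few reads to place them.

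Slc17a6, the vesicular glutamate transporter VGLUT2 that loads the transmitter of ganglion cells (chromosome 7, 51621829 to 51671126), was the exception. It had 8.91, 8.25 and 12.4 CPM at onset and 18.0, 13.5, 18.5, 18.7 and 19.9 CPM in naive libraries. All 3 onset libraries were below all 5 naive ones, at 9.85 ± 2.23 (SD, n = 3) against 17.7 ± 2.46 CPM (SD, n = 5). The log2 fold change was −0.84 ± 0.29 (SE), −1.05 without onset replicate 3 and −0.79 without naive replicates 3 and 4. Its unadjusted p was 0.00621, and it did not pass edgeR's quasi-likelihood test over all genes (adjusted p = 0.985). Presymptomatic libraries had a mean of 16.6 CPM and peak libraries 19.3 CPM, so onset was the low stage. Slc17a7, the photoreceptor and bipolar cell transporter VGLUT1, had 6.03, 4.18 and 11.1 CPM at onset and 2.53 to 5.99 CPM in naive libraries (0.86 ± 0.44, and 0.375 without onset replicate 3).

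Markers of other retinal neurons were spread about 0. Of 21 bipolar cell genes (median 0.12) and 26 amacrine and horizontal cell genes (median 0.02), 0 were at an unadjusted p under 0.05. Without onset replicate 3 these medians were −0.07 and 0.11.

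Immune gene lists had medians between −0.29 and 0.17. Microglia and macrophage genes had 14 of 19 lower and a median of −0.29, which was −0.07 without naive replicate 5, −0.13 without naive replicates 3 and 4 and −0.09 with the receptor covariate. The median of lymphocyte genes was 0.06 and that of complement genes −0.11, and without onset replicate 3 they were −0.15 and −0.25. The summed CPM of the microglia list was 163.3 to 169.9 at onset and 170.2 to 229.8 in naive libraries. Every onset sum was thus below every naive one, by a narrow gap. The mean log2 CPM of the list overlapped, at 1.95 to 2.46 at onset and 2.25 to 2.47 in naive libraries. Of the 19 genes, 0 had all onset libraries below all naive ones. P2ry12, a microglial receptor, had 14.4 to 19.0 CPM against 15.0 to 26.3 CPM (−0.24 ± 0.26, SE), and Ptprc, the leukocyte antigen CD45, 28.6 to 37.6 CPM against 27.9 to 34.6 CPM (0.07 ± 0.23). Adgre1, the macrophage antigen F4/80, had 13.8, 20.9 and 18.3 CPM against 19.7, 17.5, 50.8, 43.2 and 41.3 CPM, with naive replicates 1 and 2 in the onset range (−0.96 ± 0.35, and −0.56 without naive replicates 3 and 4).

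Interferon-stimulated genes had 22 of 38 higher with a median of 0.02, antigen processing genes a median of 0.17 and NF-kB and cytokine genes 0.08. Ifit1, an interferon-induced RNA-binding protein, was above every naive library, at 1.63, 1.91 and 2.53 CPM against 0.641 to 1.27 CPM (1.21 ± 0.55). Tnfaip3, the NF-kB inhibitor A20, had 14.2, 10.7 and 20.2 CPM against 6.23 to 13.5 CPM (0.68 ± 0.31, and 0.40 without onset replicate 3). Cytokine receptor genes had a median of −0.05, and Tgfbr2 in that list a log2 fold change of −0.56 ± 0.26, which was −0.35 without naive replicates 3 and 4.

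Genes of axon injury and stress were as mixed. The regeneration median fell to 0.03 without naive replicates 3 and 4. DLK signalling genes had 16 of 28 higher (median 0.08), regeneration genes 19 of 32 (0.14), stress and unfolded protein response genes 17 of 32 (0.02) and cell death genes 12 of 36 (−0.04). Map3k12, which encodes the injury kinase DLK itself, had 9.79, 7.92 and 12.5 CPM at onset and 7.16, 7.00, 4.60, 3.90 and 6.62 CPM in naive libraries. The groups did not overlap, and the log2 fold change was 0.78 ± 0.32 (SE). Hsf1, the heat shock factor, had 7.53, 6.19 and 9.03 CPM against 1.84 to 5.11 CPM, also without overlap (0.98 ± 0.42). The DLK targets Jun (0.35 ± 0.33), Atf3 (−0.27 ± 0.40) and Ddit3 (0.24 ± 0.79) overlapped between groups.

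The clock and ion transport lists were the ones outside photoreceptors with most members on the higher side. Circadian clock genes were 18 of 23 higher with a median of 0.23, which was −0.03 without naive replicates 3 and 4 and 0.09 without naive replicate 4 alone. Per1, a core clock repressor, had 33.0, 25.8 and 27.5 CPM at onset and 16.7, 25.2, 9.12, 15.8 and 20.3 CPM in naive libraries, without overlap (0.72 ± 0.30, SE, and 0.465 without naive replicates 3 and 4). Cation-chloride cotransporter and ion pump genes were 23 of 25 higher with a median of 0.18, which was 0.02 without those 2 libraries and 0.08 without naive replicate 3 alone.

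Channels and glutamate receptors lay close to the median of all genes. Calcium and potassium channel medians turned negative, to −0.13 each, without naive replicates 3 and 4. The values with all libraries follow. Voltage-gated sodium channel genes had a median of 0.10, calcium channel genes 0.10, potassium channel genes 0.04, AMPA and kainate receptor genes −0.07, NMDA and delta receptor genes −0.15 and metabotropic receptor genes −0.10. Cacna1h, a T-type calcium channel, had 26.2, 30.0 and 41.1 CPM at onset and 11.7 to 27.3 CPM in naive libraries (0.65 ± 0.26, SE). Dlg4, the postsynaptic scaffold PSD-95, had 31.1, 22.4 and 41.5 CPM against 7.51 to 29.6 CPM (0.74 ± 0.32, and 0.41 without naive replicates 3 and 4).

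Among the 38 lists outside photoreceptors, 3 had a median beyond 0.2 in size: microglia and macrophages, liver-enriched genes and the circadian clock. As given above, each of these came under 0.2 when 1 naive library was left out. Over all lists, 951 of 1055 genes were tested, with 41 higher and 21 lower at an unadjusted p under 0.05 (1.56% and 2.93% of all genes were). Of the 41, 26 were in the photoreceptor lists, and of the 21, 9 were among the 27 X-linked members tested. Most listed genes that differed at this level were thus in one of those 2 groups. The remaining 15 higher genes were spread over many lists. The remaining 12 lower genes were less so, as the liver-enriched list held 5 of the 21 lower genes, 1 of them X-linked.

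**Figure D5:**
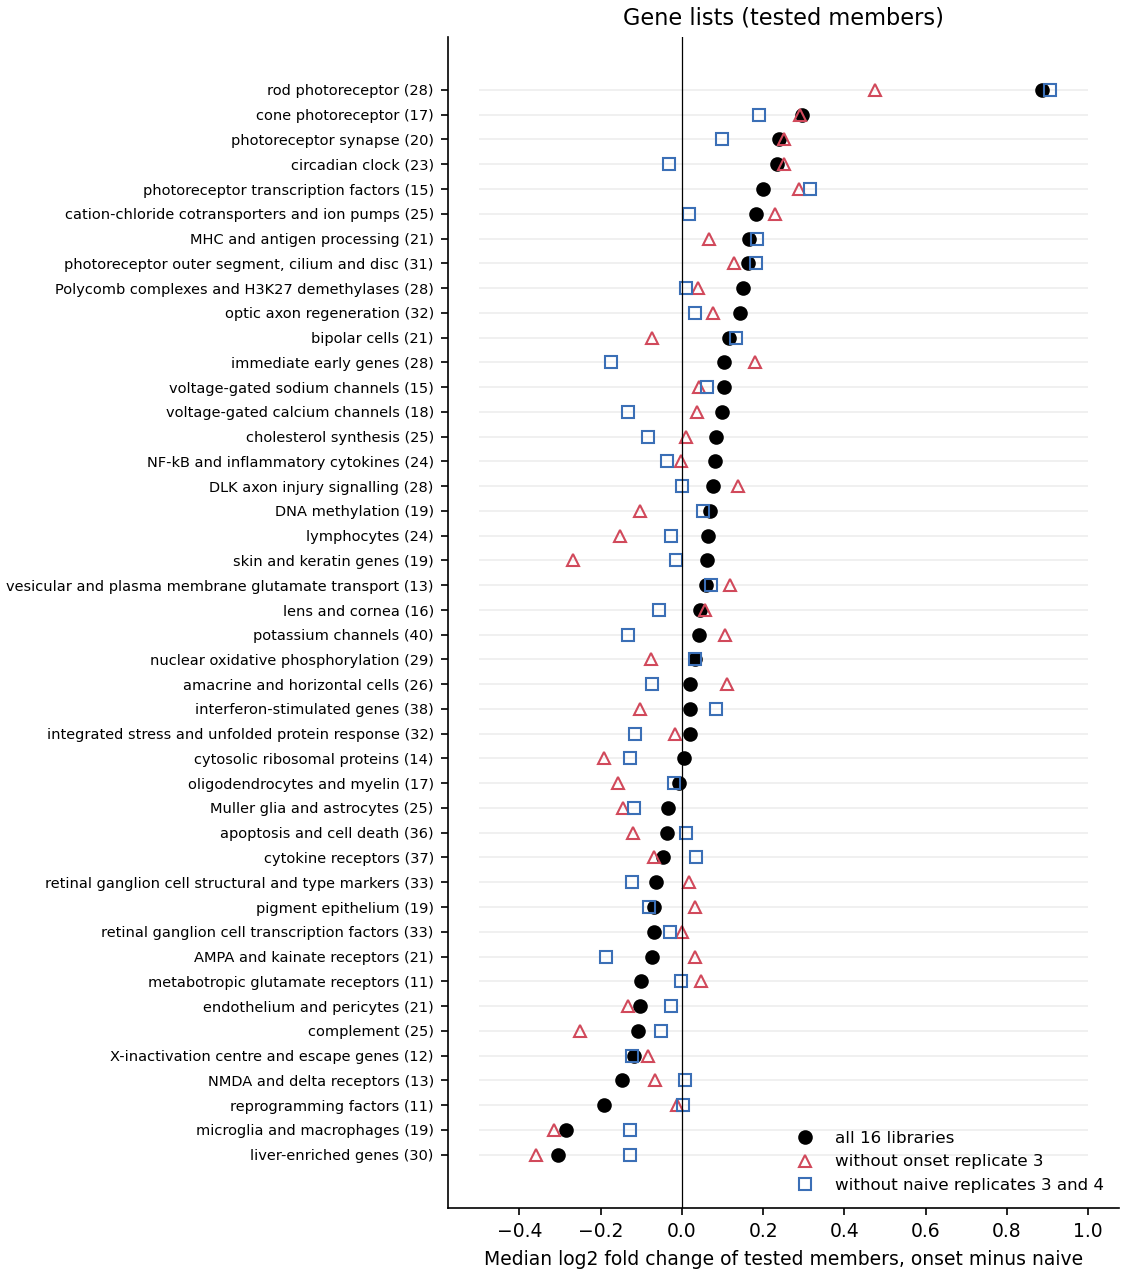
Median log2 fold change, onset minus naive, of the tested members of each gene list (number in brackets) with all libraries (black), without onset replicate 3 (red) and without naive replicates 3 and 4 (blue). The rod list stands apart at 0.885 and drops to 0.475 without onset replicate 3, while the circadian and ion pump lists move to near 0 without the naive pair.

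Onset was also set against the other disease stages, in comparisons that share the same 3 onset libraries. The X-linked median was −0.51 against presymptomatic libraries, with 92 genes lower at an unadjusted p under 0.05 (1.57% of all genes were), and −0.58 against peak libraries, with 146 (2.90%). For presymptomatic against naive it was −0.13 with 8 genes lower (0.779% of all genes were), and for peak against naive −0.09 with 17 (1.76%), both of which share the naive libraries. Per1 had 28.8 CPM at onset and 17.4, 17.3 and 17.6 CPM in naive, presymptomatic and peak libraries, and Slc38a3 21.9 CPM against 9.44, 10.1 and 7.76 CPM.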

How the data were processed

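Per the submitters' processing notes, reads were handled with cutadapt, HISAT2 and HTSeq; versions, genome build, annotation, duplicate handling and any shift of read ends are not given in the sources used here. For 37255 gene intervals and 16 libraries the deposited table holds whole-number counts with no scaling, and RPKM values that the authors divided by a library total and an interval length. That length was the gene's span less 2000 bp, without sign (largest relative deviation of the implied totals 9.15e-14), so intervals are gene bodies without 1000 bp at either end; spans under 2000 bp give windows about the middle, and under 1000 bp these take in starts and flanks. RPKM was used only for this. Coordinates are as deposited, with no build assigned.

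Counts were fitted with edgeR 4.0.16 in R 4.3.3: filterByExpr (minimum count 10, total 15) kept 29902 genes, TMM scaling, a mean per stage over 16 libraries, the quasi-likelihood test of onset minus naive, and Benjamini-Hochberg adjustment at 0.05. The robust option of the fit was not in the plan; it was adopted after a first fit without it, because it gave counts equal to those of an earlier account of these data, and values without it are in the closing section. Log2 CPM used a prior count of 2. Shares per library were compared by two-sided exact permutation tests (56 splits). DESeq2 1.42.0 and limma 3.58.1 were alternatives. Replicates differed by more than counting noise (chi-square per degree of freedom 7.68 to 63.6).

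Named genes were, among spans of at least 2000 bp and mean CPM of at least 5, the 12 higher and 12 lower with the smallest p (leaving out mitochondrial, receptor, Gm-numbered, Rik and photoreceptor-list genes), 6 photoreceptor genes and up to 3 per list, plus defining markers. The comparison and the 43 lists were chosen with earlier results of these data known, so lists are described without tests. The 20 kb window, the chromosome breakdown, the promoter search and the removal of naive replicates 3 and 4 came after the data were seen. Shared replicate numbers did not pair libraries (correlations −0.01, −0.21 and −0.29). Promoters are from RefSeq. Some listed genes are counted in their lists and not reported by name here.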

Additional observations from a re-analysis of the deposited data

Results flagged for a closer look

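Among the 36 sets of 5 naive values checked (30 named genes and 6 library measures), 1 held a library far from the others: Nrl had 2.15 CPM in naive replicate 3, against 4.49 to 5.28 CPM in the other 4 naive libraries. Chance gives such a gap in about 1 of 20 sets. Without naive replicates 3 and 4 the log2 fold change of Nrl was 1.04.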

How the results depend on the processing

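Under 24 alternatives, 0 genes passed the adjusted threshold in any, and all 714 alternative fold changes of the 30 named genes kept their direction. These genes were chosen by p in the main fit on largely the same libraries, so a kept direction is no independent support. Counts at an unadjusted p under 0.05 moved: the higher side (467) was 709 on nuclear reads without TMM, 5115 on all interval reads without TMM, 790 with the replicate block, 205 without libraries 16 and 17 (presymptomatic replicate 4 and onset replicate 3, numbered out of stage order), 288 without naive replicates 3 and 4, 810 by voom, and 190 to 747 with 1 library left out. The lower side (876) was 21 on all interval reads, 273 with the receptor covariate, 180 without naive replicates 3 and 4, 1355 by DESeq2, and 330 to 1740 with 1 library left out. Scaling by all interval reads moved the median of all genes to 0.59, and values under it are relative to that shift. The rod median (0.885) was 1.61 there, 0.478 without libraries 16 and 17, and 0.475 to 1.03 with 1 library left out. The X-linked median (−0.67) was −0.028 on all interval reads, −0.09 with the receptor covariate, −0.088 without naive replicates 3 and 4, and −0.83 to −0.39 with 1 library left out. The difference in receptor share (−0.119 percentage points) was −0.0043 as a share of all interval reads. It was 0.0046 without that pair, which follows from choosing the pair for its high receptor share. Genes whose groups did not overlap were 253 higher and 119 lower at a mean CPM of at least 5, 1163 and 851 without the pair (fewer libraries to clear), and 178 lower on nuclear reads. Without the robust option 468 were higher and 1012 lower. Same-numbered libraries did not deviate together, so the block, which changed no adjusted call, is only an alternative. Causes were not tested.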

Other observations

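Gene classes set by length or type gave small differences. Of 576 tested genes with spans of at least 300 kb, 401 were lower at onset with a median of −0.14, and 28 were lower at an unadjusted p under 0.05 (4.86%, against 2.93% of all genes); without onset replicate 3 the median was −0.03 and 2 genes were lower. Genes with spans of 1000 to under 2000 bp had 247 of 409 higher and a median of 0.17. Small nucleolar RNA genes had 47 of 74 higher (median 0.15), microRNA genes 420 of 796 (0.05) and zinc finger protein genes 236 of 423 (0.06).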
